A study of Mus musculus with 4 samples.

Results

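The major histocompatibility complex (MHC) of the mouse lies on chromosome 17. Here it was taken as the 2.4 Mb that start at 34 Mb on build mm9, and its DNA methylation in fetal liver was read from a tiling array. All 2101 probes that start in the segment and passed the scanner's outlier flags were used, of 415749 on the array. Probes at most 500 bp apart were joined into regions of up to about 2000 bp with at least 3 probes, which gave 270 regions in the segment of 56653 in all. The remaining 102 probes of the segment stood too far apart to join. Apart from the outlier flags, which are set on the signal, no measured value entered the choice of probes or their joining into regions. The segment itself was chosen with earlier results of these data known.

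The samples were livers of C57BL/6J fetuses taken by caesarean section on gestation day 18. The control dams ate freely, and the food restricted dams received 50% of the chow that the controls ate, from gestation day 10 to 17. Each group was a single pool of liver DNA, labelled N=6, with no word on litters, sex or whether fetuses or dams were counted. From each pool, immunoprecipitated methylated DNA was hybridised against the pool's own total genomic DNA, the reference, on 2 arrays with the dyes exchanged. On slide 1 the precipitated DNA of both pools carried Cy5, and on slide 2 it carried Cy3. The 2 arrays of a pool repeat the hybridisation and not the animals, so no test was possible and no p-value is given. Both slides are shown for each value instead. DNA gives no marker levels, so the labelled tissue could not be checked. A whole liver holds many cell types, and a change in the cells present cannot be told apart from a change in methylation within cells.

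The MHC is a dense stretch of genes known for its role in immune recognition. Class I molecules such as H2-K1 and H2-D1 show peptides from inside the cell to cytotoxic T cells. Class II molecules such as H2-Aa, H2-Ab1 and H2-Eb1 show peptides taken up from outside to helper T cells, and are made mainly by cells that present antigen. Tap1, Tap2, Psmb8 and Psmb9, which cut and carry peptides for class I, lie among the class II genes. The class III genes in the middle include the complement genes C2, Cfb, C4a and C4b, made mostly by the liver, the heat shock genes Hspa1a and Hspa1b, and the cytokine genes Tnf, Lta and Ltb. The fetal liver is a blood-forming organ as well as a metabolic one. DNA methylation in mammals sits mostly on cytosines that precede a guanine (CpG), and CpG-rich promoters are usually unmethylated.

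In the RefSeq table of build GRCm38.p6, 197 genes run from H2-K1 to H2-T3, and 125 of them code for protein. The order starts with H2-K1, Ring1 and Rxrb, goes on through the class II genes from H2-Oa to H2-Ea and the class III genes from Notch4 to Ddx39b, and ends with H2-D1, the Q genes, Pou5f1 and the T genes. Of 115 listed gene symbols, 113 were found in the table. The table is not of the array's build, so no gene was placed on a region, and regions are named by their mm9 position.

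Immunoprecipitation of methylated DNA responds to CpG density as well as to methylation, and the promoters of the complex differ widely in CpG. Over all 32851 RefSeq promoters, the 250 bases before the start held a median of 6 CpG, and 37.8% held 10 or more. The 125 promoters of 89 listed MHC genes had a median of 10, and 52.8% held 10 or more. All 4 promoters of the antigen processing list held 10 or more CpG, against 1 of 9 class II promoters, whose median was 2. A CpG-rich and a CpG-free promoter of the complex are shown to make this range visible. They are the promoters with the most and the fewest CpG among the classical class I and class II genes that have 1 promoter. Each sequence runs 5′ to 3′ on the plus strand of GRCm38.p6 (RefSeq) with its CpG in capitals. H2-D1, a class I heavy chain gene, has 14 CpG in this window and H2-Eb1, a class II beta chain gene, has 0.
H2-D1: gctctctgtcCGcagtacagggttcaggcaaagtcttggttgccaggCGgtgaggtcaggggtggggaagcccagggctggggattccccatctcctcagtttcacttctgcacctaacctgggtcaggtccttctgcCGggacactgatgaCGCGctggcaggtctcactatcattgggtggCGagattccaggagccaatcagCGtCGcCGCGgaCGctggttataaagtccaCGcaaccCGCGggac
H2-Eb1: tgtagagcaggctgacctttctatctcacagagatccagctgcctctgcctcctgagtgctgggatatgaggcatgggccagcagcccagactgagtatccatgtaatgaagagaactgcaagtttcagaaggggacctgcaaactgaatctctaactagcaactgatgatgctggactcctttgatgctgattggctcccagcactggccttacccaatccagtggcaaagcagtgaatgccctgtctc
Neither sequence could be placed under a measured region.

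The segment was read well by the arrays. In the immunoprecipitated channel, 87.8% to 93.6% of its probes stood well above background, against 72.0% to 80.6% over all probes. In the reference channel it was 97.9% to 99.1%. No probe of the segment was saturated. The control arrays (88.0% and 87.8%) had fewer probes above background in the immunoprecipitated channel than the food restricted arrays (93.2% and 93.6%). In 10 regions (3.70%) fewer than 50% of probes were above background on both control arrays, and in 1 region (0.370%) on both food restricted arrays. Over all regions these shares were 17.98% and 10.2%. Such regions are called dim, and their low levels are upper bounds.

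The measure used is M: log2 of precipitated over reference signal, less the median of the array, so 0 is the middle probe of the array and 1 stands for a ratio 2 times that of the middle. M rises with methylated CpG in the fragment and is not a percentage of methylated cytosines. The value of a region is the median M of its probes.

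The MHC segment was more enriched than its surroundings in both pools. The median M of its 270 regions was 0.81 and 0.74 on the control arrays of slides 1 and 2 and 0.75 and 0.65 on the food restricted arrays. The 2296 other regions of chromosome 17 had medians between 0.0060 and 0.083. All 54272 autosomal regions outside the segment, which include those 2296, had medians between -0.079 and -0.063. All 4 arrays thus placed the segment higher, by a margin larger than the spread between arrays. The excess ran through the range of mean M over the 4 arrays. The 10th percentile was -1.17 in the segment and -1.44 in autosomal regions outside it. The median was 0.74 against -0.086, and the 90th percentile 3.23 against 2.42. M was above 1 on all 4 arrays in 106 regions (39.3%), against 29.8% on the rest of chromosome 17 and 25.7% of all autosomal regions outside the segment. It was above 3, an 8-fold ratio to the middle, in 26 regions (9.63%), against 4.44% and 3.47%. Regions below -1 on all 4 arrays were fewer, 18 (6.67%) against 12.8% and 14.3%. With loess within arrays the share above 1 in the control pool was 8.52% in the segment and 14.5% over all regions, which turns the order; under the other settings tried that give M it stayed above. Counted by the mean of a pool's arrays, 119 regions (44.1%) of the control pool were above 1, and 115 (42.6%) of the food restricted pool. Probes of the segment were also shorter than elsewhere, with a median of 52 bp against 59 bp, and 25.9% had the shortest length of 45 bp against 13.6% overall. Within the segment the 45-bp probes had a median M of 0.76 and the 60-bp probes 0.31, against -0.056 and -0.20 over the whole array. The segment was therefore higher within each of these lengths, and the part of probe length in the rest was not tested.

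**Figure D1:**
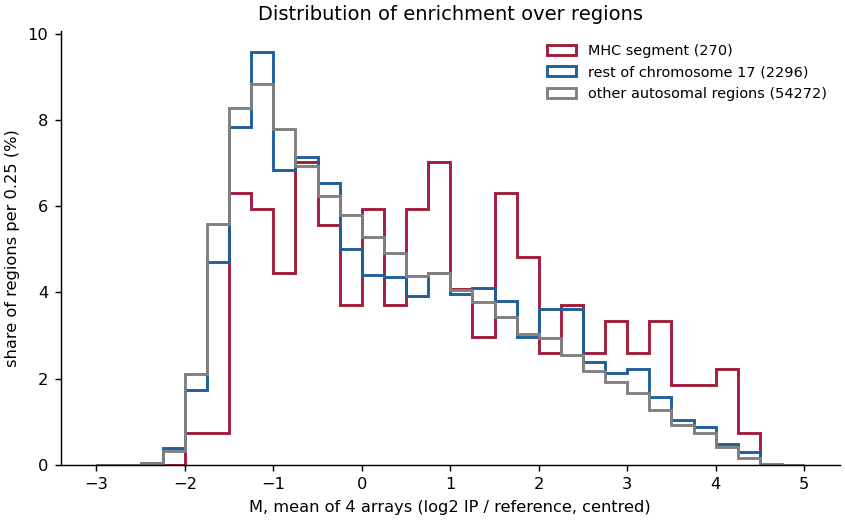
Share of regions (%) per 0.25 of M (log2 ratio, mean of the 4 arrays) for the 270 regions of the MHC segment, the 2296 other regions of chromosome 17 and all 54272 autosomal regions outside the segment, which include those 2296. The MHC line is lower than both others below -1 and higher above 3.

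The regions varied widely within short distances. From the 10th to the 90th percentile, mean M ran from -1.17 to 3.23, with quartiles of -0.51 and 1.98 around a median of 0.74. Arrays of the same pool ranked the regions alike, with r of 0.985 (control) and 0.984 (food restricted) over 270 regions. The 2 pools on 1 slide were nearly as close, with r of 0.976 on each slide, so most of what the arrays measured here was a pattern shared by both pools. Neighbouring regions were only loosely alike. Over the 184 pairs at most 2.0 kb apart, r was 0.27, the median step in M was 1.26, and 63 pairs (34.2%) differed by over 2. For all regions of the array these values were 0.32, 1.02 and 23.5%. These correlations describe regions that share arrays and neighbours, and carry no test.

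Along position, enrichment varied from window to window. Of 24 windows of 100 kb, 14 held at least 10 regions, and the median M of these 14 ran from 1.70 in 34–34.1 Mb to -0.54 in 35.9–36.0 Mb. In the first window, with 20 regions, the array medians were 1.84 and 1.59 (control) and 1.67 and 1.68 (food restricted), and 6 regions were above 3 on all 4 arrays. The next window, 34.1–34.2 Mb, had a median of 1.42, 34.9–35.0 Mb had 1.53 and 35.0–35.1 Mb had 1.19. High windows thus stood in at least 2 separate places. The windows 34.2–34.3 Mb (0.06) and 34.4–34.5 Mb (-0.05) lay near the array's middle. In 35.9–36.0 Mb all 4 arrays had medians between -0.55 and -0.49. Among windows with fewer regions, the median was 2.77 in 34.8–34.9 Mb (2 regions), 1.93 in 35.8–35.9 Mb (9 regions) and -1.04 in 34.5–34.6 Mb (7 regions). Coverage was uneven. The median distance between probe starts was 184 bp, but 10 gaps were longer than 50 kb, the longest of 111550 bp between probes at 35844153 and 35955703. The window 36.2–36.3 Mb held 8 probes and no region.

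**Figure D2:**
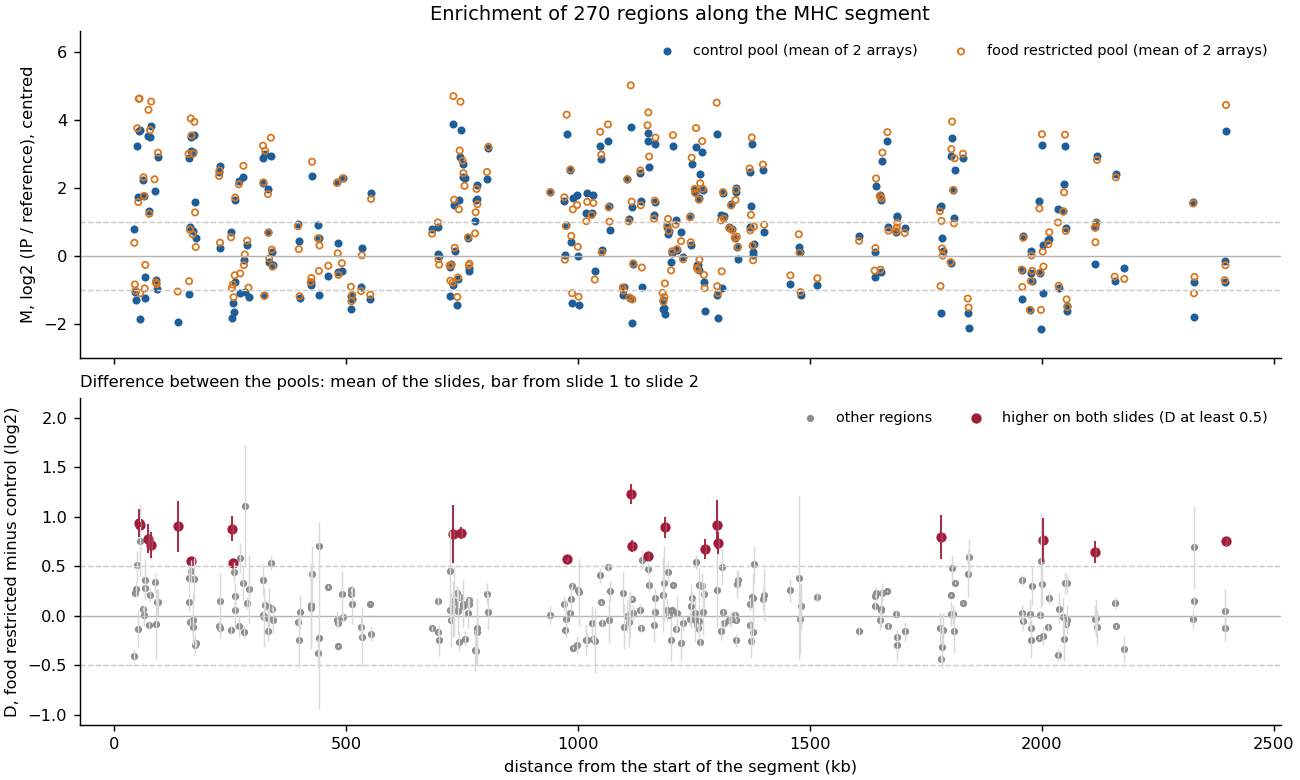
Upper panel, M (log2 ratio) of each of the 270 regions against its distance from the start of the segment (kb), as the mean of the 2 arrays of each pool. Lower panel, the difference between the pools, D (log2), as the mean of the slides with a bar from slide 1 to slide 2; the 22 regions with D of at least 0.5 on both slides are in red, and none lies at -0.5 or below on both.

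The 5 regions with the highest mean M lay between 3.55 and 3.98 on the control arrays and between 4.49 and 5.02 on the food restricted arrays. They were chr17:35113835-35114945 (mean M 4.39), chr17:34731456-34732775 (4.28), chr17:34080085-34080746 (4.18), chr17:34054950-34056276 (4.16) and chr17:34053477-34054849 (4.15), all on mm9. The last 2 are neighbours near the start of the segment. In chr17:34731456-34732775 the 7 probes had means between 4.02 and 4.37, so that the whole region was uniformly high. In chr17:35113835-35114945 the 4 probes ran from 0.94 to 4.66. There the first probe had M of -0.95 and -0.83 on slide 1 (control, then food restricted) but 2.13 and 3.39 on slide 2, while the other 3 were at least 3.51 on all 4 arrays.

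At the other end, chr17:35998035-35999116 had the lowest mean M, -1.86. Its values on slides 1 and 2 were -1.71 and -2.57 for control and -1.63 and -1.55 for food restricted. The slides of the control pool differed by more than the pools did on slide 1. It was followed by chr17:35842025-35843674 (-1.82), chr17:35117387-35118846 (-1.63), chr17:35974250-35975870 (-1.59) and chr17:34137192-34137691 (-1.50). Of these 4, all but the last were dim in the control pool. In all 5, every probe was above background in the reference channel (100% on each array), so low M came with a weak immunoprecipitated signal over a reference that was read.

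Enriched regions stood alone or in rows of up to 7. How many rows a random order of the regions would give was not computed. The 106 regions above 1 on all 4 arrays fell into 55 runs of neighbours, 27 of them of 1 region. The longest had 7 regions and 51 probes, from 34779490 to 34971164, with region means from 1.46 to 3.19. It contains a stretch of 132380 bp with no region, so it does not show continuous enrichment. More compact was the run from 34743236 to 34756184, with 6 regions in 12949 bp and means from 1.5 to 4.11. A further run of 6 regions went from 35150005 to 35168356, with means from 1.14 to 3.91. Regions below -1 on all 4 arrays made 15 runs, 12 of them of 1 region, and none longer than 2. Those pairs were 36053340–36056777, 35840194–35843674 and 35184146–35187271, each of about 3 kb (3438, 3481 and 3126 bp).

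Some edges between high and low DNA were sharp. The largest step was from chr17:34054950-34056276 to chr17:34056377-34057647, which lie 101 bp apart. M was 3.74, 4.63, 3.67 and 4.61 in the first and -2.04, -0.91, -1.68 and -1.29 in the second, in the order control and food restricted on slide 1, then on slide 2. The step was thus -5.78, -5.54, -5.35 and -5.90 on the 4 arrays. All 4 arrays showed it, in both pools. A like fall, from a mean of 4.04 to -1.02, separated chr17:35299005-35300217 from chr17:35300326-35301334 over 109 bp. Rises of 5.63, 5.28 and 5.10 in mean M led into chr17:35113835-35114945, chr17:36000170-36001464 and chr17:34731456-34732775, over gaps of 1354, 1054 and 940 bp.

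The comparison of the pools asked whether restriction of the mother's food went with a different methylation of fetal liver DNA. D subtracts the control value of M from the food restricted value on the same slide, so it is positive where restriction went with more enrichment. Regions were called from a size of 0.5 upwards, a 1.41-fold difference in ratio, if the slides gave the same sign. In the MHC segment, 22 of 270 regions (8.15%) were called higher under food restriction and 0 were called lower. Over all 56653 regions, 4.55% were called higher and 0.643% lower. No region of the segment passed the size with opposite signs, against 0.717% of all regions. On slides 1 and 2 the medians of D were 0.05 and 0.11, close to the 0.04 and 0.09 of all regions. A shift common to the whole array is taken out of D, because the median of each array was subtracted. Without centring, the median of D as the mean of the slides was 0.15 in the segment and 0.15 over all regions. D was positive on both slides in 120 regions, negative on both in 63 and of differing sign in 87. Over all 56653 regions these counts were 22163, 13407 and 21083, so positive D was the more frequent sign there too. D on the slides correlated at r = 0.52 over the 270 regions and at 0.34 over all regions, where the slides share the pools and their preparation.

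The direction of D rests on which array held which pool. The series also has a deposited table of values, in which the column of the food restricted array of slide 1 and that of the control array of slide 2 hold each other's scanner values, equal within 0.001 at 100% of the spots on the array. Over all spots, each of these columns has r = -0.90 against the scanner values of the sample it names. With the columns taken by their headers, 0 regions of the segment were higher, against 2.53% of all regions. Read in the same way, 3 regions of the segment were lower, against 584 of all 56653. For this the exchanged columns were turned in sign so that M ran with the other arrays. Read so, both control columns hold scanner values of slide 1 and both food restricted columns those of slide 2. Pool, slide and dye then cannot be told apart. The scanner files were used here because the sign of their red to green ratios follows the dyes named in the titles. The labels of both food restricted arrays also carry a note of a dye exchange, although the titles place the exchange between the slides. Which arrays held which pool is not settled by these data. Array position on the slide was the same for a pool on both slides, so position and pool cannot be told apart.

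**Figure D3:**
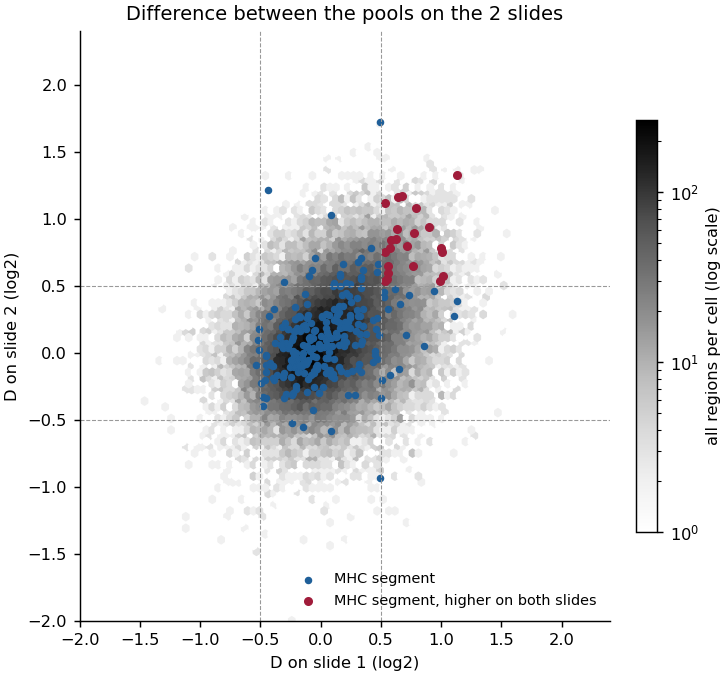
D (log2, food restricted minus control) of each region on slide 1 and slide 2. Grey cells count all 56653 regions on a log scale, and points are the 270 MHC regions, with the 22 called higher in red; dashed lines mark 0.5 and -0.5, and no MHC point lies in the lower left corner beyond them.

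The 22 higher regions came from both ends of the range of M and hardly from its middle. When all regions of the array were split into 10 classes of equal size by mean M, 12 of the 22 lay in the highest class, 9 in the lowest 5 classes and 1 in classes 6 to 9. The segment has 19.3% of its regions in the highest class. Within that class 12 of 52 MHC regions were higher (23.1%), against 12.4% of all regions of the class. Within classes 1 to 5 it was 9 of 89 (10.1%) against 6.36%, and within classes 6 to 9 it was 1 of 129 (0.775%) against 0.335%. The share called was thus above that of all regions in each of these 3 bands, with few regions behind it. By single class it was above in classes 1, 2, 3, 6 and 10. It was below in class 4 (4.17% against 4.24%), in class 5 (0% against 2.06%) and in classes 7 to 9. In classes 7 to 9 it was 0%, against 0.26%, 0.07% and 0.19%. When D was set against the running median of regions with like mean M, 2 regions of the segment (0.741%) were higher, against 1.09% of all regions.

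**Figure D4:**
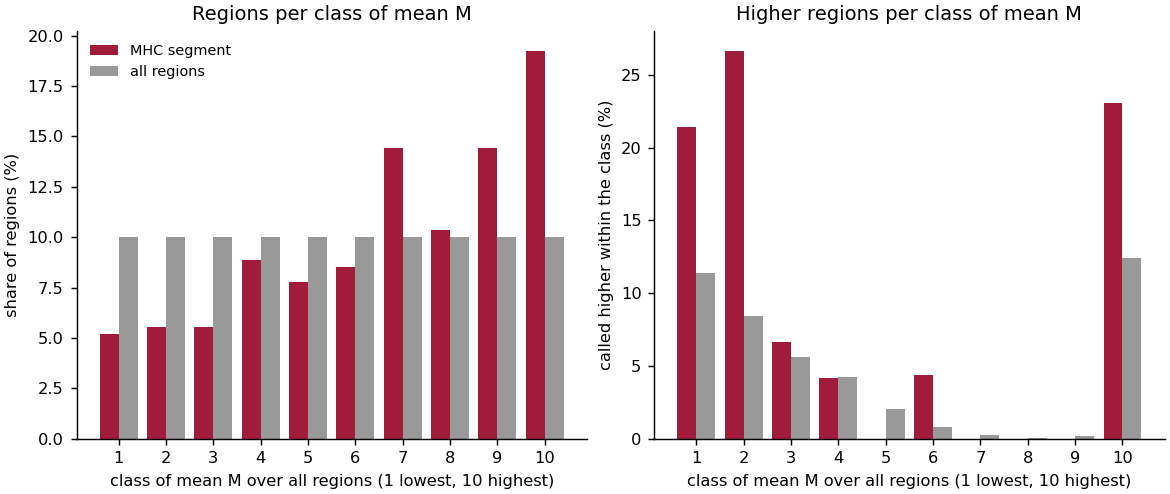
Left, share of regions (%) in each of 10 classes of mean M for the MHC segment and for all regions. Right, share of each class called higher in the food restricted pool (%); in the MHC segment it is 23.1% in class 10 and 0% in classes 7 to 9.

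The 12 higher regions of the top class were strongly enriched in both pools and more so in the food restricted one. Their mean M lay between 3.76 and 4.39, and their fold difference between 1.46 and 2.35. In all 12 the signal of the food restricted pool was lower in both channels on both slides: the median difference was -0.37 and -0.31 in the immunoprecipitated channel and -0.79 and -0.88 in the reference, each relative to its array's middle. D was positive in them because the reference channel was lower by more. Calls of this class looked alike over the whole array. Of its 702 higher regions, 678 had a lower immunoprecipitated signal on both slides and 686 a lower reference signal. Their median differences were -0.38 and -0.31 in the immunoprecipitated channel and -0.75 and -0.80 in the reference. The part of labelling or of the reference DNA in this was not tested. With the immunoprecipitated channel alone, none of the 12 was higher.

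The largest difference of the segment was in chr17:35113835-35114945, the region of highest M. M was 3.87 and 3.69 on the control arrays and 5.0 and 5.02 on the food restricted arrays of slides 1 and 2. Both food restricted values lay over 1 unit above both control values, while the arrays of a pool lay close together. D was 1.13 and 1.33, a 2.35-fold higher ratio, in a region of 4 probes (2.19-fold with the probe near background set at the lowest level read above it). Its immunoprecipitated signal differed by -0.28 and -0.27 and its reference signal by -1.17 and -1.31. In 3 of its probes D was between 1.04 and 1.44 on both slides, and in the first it was 0.12 and 1.26.

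The neighbours chr17:34053477-34054849 and chr17:34054950-34056276 were both higher. In the first, M was 3.81 and 3.55 in the control pool and 4.60 and 4.63 in the food restricted pool (D 0.79 and 1.08, 1.91-fold, 10 probes). In the second it was 3.74 and 3.67 against 4.63 and 4.61 (D 0.90 and 0.94, 1.89-fold, 8 probes). In neither region did the pools overlap, which the call already fixes within a slide. The probes show where the difference lay. In the first region, the 3 probes at its start, with M up to 3.56, had D between -0.32 and 0.16, and the fifth to the ninth probes, with M between 3.56 and 5.45, had D between 1.01 and 1.54. In the second, the first 5 probes had D between 0.72 and 1.20, and the next 2, where M was lower, between -0.19 and 0.32. The last probe, at the sharp edge described above, had D of 2.03 on slide 1 and 0.42 on slide 2. Apart from that edge probe, the difference in this stretch was largest at probes of high M.

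The same start of the segment held further high regions with a difference. In chr17:34074213-34075826, M was 3.53 and 3.49 in the control pool and 4.16 and 4.42 in the food restricted pool, a 1.72-fold difference. In chr17:34080085-34080746 it was 3.91 and 3.73 against 4.49 and 4.57, a 1.64-fold difference, with all 5 probes up on both slides. With chr17:34165269-34166814 (D 0.55 on both slides), these made 5 strongly enriched higher regions in the first 200 kb. Here again the food restricted arrays stood above the control arrays without overlap, as the call requires within each slide. The call uses the medians of a region's probes, so counts of probes up on both slides, here and below, are no separate support.

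Further along, chr17:34731456-34732775 had M of 3.98 and 3.75 in the control pool and 4.52 and 4.87 in the food restricted pool (D 0.54 and 1.12). In chr17:34746847-34748357, part of the compact run of 6 enriched regions, M was 3.73 and 3.66 against 4.50 and 4.56, a 1.78-fold difference with all 8 probes up on both slides. Both regions were high along all their probes. The slides gave the first a smaller and a larger D, and the second nearly the same, 0.78 and 0.89. In chr17:35299005-35300217, M was 3.56 and 3.60 against 4.23 and 4.77 (1.89-fold, 7 of 7 probes up on both slides). At the far end of the segment, chr17:36396980-36398275 had 3.77 and 3.58 against 4.49 and 4.38 (1.69-fold). The remaining 2 of the 12 were chr17:34975568-34977280 (1.49-fold) and chr17:35151769-35153282 (1.52-fold), both with 10 of 11 probes up on both slides. In chr17:35151769-35153282 the control value of slide 1, 3.92, lay just below the food restricted value of slide 2, 3.96, so that across slides the pools nearly met.

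**Figure D5:**
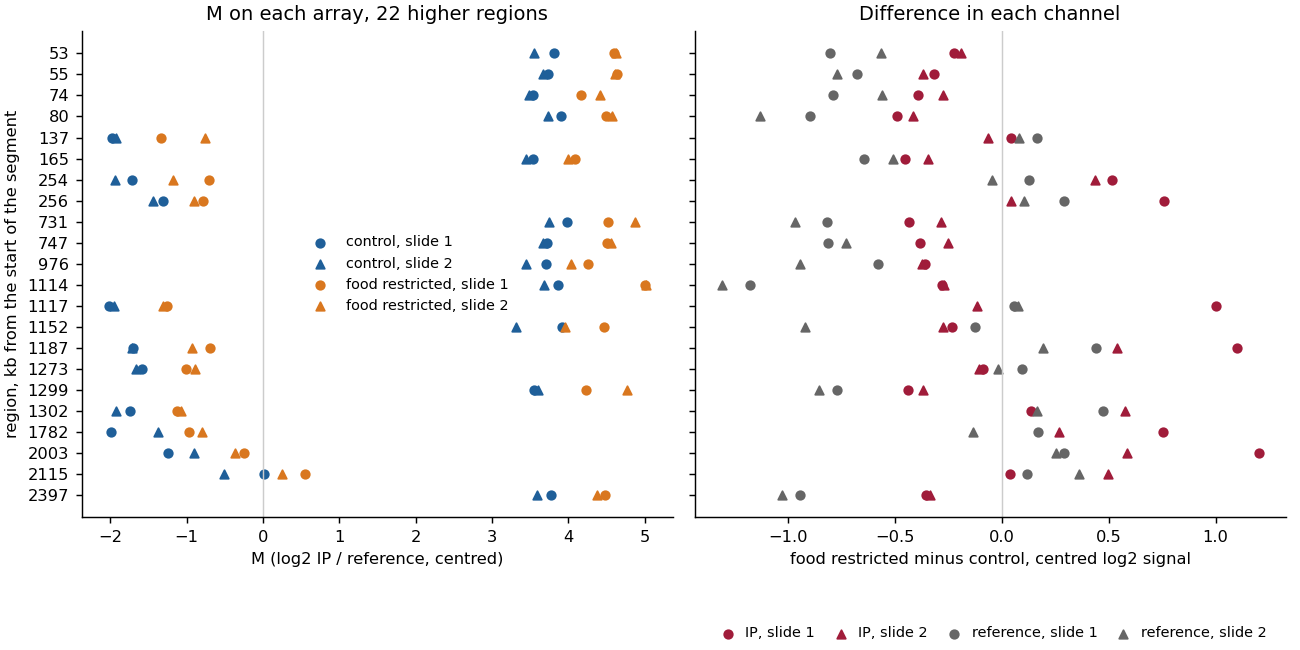
The 22 higher regions by distance from the start of the segment (kb). Left, M (log2 ratio) on each of the 4 arrays; right, the difference between the pools (log2, food restricted minus control) in the immunoprecipitated (IP) and the reference channel, relative to the array's middle. In the 12 regions with M above 3 both channels lie left of 0, and in most of the others the IP points lie right of it.

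The 9 higher regions of the lowest 5 classes were weakly enriched in both pools and less depleted in the food restricted one. Their mean M lay between -1.63 and -0.69 and their fold difference between 1.45 and 1.87. Here the precipitated DNA gave more signal after food restriction in most regions, with median differences of 0.75 and 0.27 on the slides. Both differences were positive in 6 of 9 and both negative in 1. The reference differed by 0.17 and 0.08, and was also positive on both slides in 6 of 9. Over all 1802 higher regions of these classes the immunoprecipitated difference was positive on both slides in 1492, with medians of 0.57 and 0.51. Their reference differed by 0.18 and 0.17, and was positive on both slides in 1446. The control arrays of the segment also had fewer probes above background in the immunoprecipitated channel. Of the 9 regions, 2 were dim in the control pool, against 696 of the 1802. The part of that lower control signal in D was not tested. In classes 1 to 5, loess within arrays left 0 higher regions of the segment and normexp background correction left 2.

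Among them, chr17:35187400-35188333 was read above background on at least 80.0% of probes of every array. M was -1.70 and -1.71 in the control pool and -0.70 and -0.92 in the food restricted pool, a 1.86-fold difference with 4 of 5 probes up on both slides. Its immunoprecipitated signal differed by 1.1 and 0.54, and its reference by 0.44 and 0.20. In chr17:34254052-34255587, M was -1.71 and -1.93 against -0.71 and -1.18 (1.84-fold), with 8 of 9 probes up on both slides. On the control arrays 77.8% of its probes were above background, and with the others set at the lowest level read above it the difference was 1.41-fold. Its neighbour chr17:34255959-34257538 was higher too, with D of 0.53 and 0.54. The pools did not overlap in any of these 3 regions, which within a slide follows from the call.

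In chr17:35301946-35302662, M was -1.74 and -1.92 against -1.12 and -1.07 (1.66-fold, or 1.32-fold with control probes near background set at the lowest level read above it), with all 6 probes up on both slides. It lies just under 2 kb beyond chr17:35299005-35300217, one of the strongly enriched regions, so that higher regions of opposite level stood on either side of the sharp edge at 35300326. In chr17:36003437-36003997, M was -1.24 and -0.90 in the control pool and -0.25 and -0.37 in the food restricted pool (1.70-fold, 4 probes), and all its probes were above background on every array.

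The other 4 of the 9 were read near background in the control pool. In chr17:34137192-34137691, M was -1.98 and -1.92 against -1.33 and -0.76, on 3 probes of which 66.7% were above background on each control array. Its immunoprecipitated signal differed by 0.04 and -0.06. In chr17:35272979-35273918, M was -1.58 and -1.67 against -1.01 and -0.89, with 50.0% of probes above background on each control array. Leaving out dim probes turned its mean D of 0.68 to -0.08, so that its call rests on probes near background. In chr17:35781510-35782896, dim in the control pool, M was -1.98 and -1.37 against -0.97 and -0.80, which gives an at least 1.21-fold higher ratio when the control signal is set at the lowest level read above background. The fourth, chr17:35117387-35118846, was also dim in the control pool, with M of -2.02 and -1.95 against -1.26 and -1.30, and no fold is given because its bound lies under 1. It lies between 2 and 3 kb past the region with the largest difference.

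The single higher region in the middle of the range was chr17:36115449-36116665. M was 0.01 and -0.50 in the control pool and 0.54 and 0.25 in the food restricted pool, a 1.56-fold difference with 3 of 6 probes up on both slides. Its immunoprecipitated signal differed by 0.04 and 0.50 and its reference by 0.12 and 0.36.

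Higher regions lay in 12 of the 23 windows of 100 kb that held a region. The windows 34–34.1 Mb and 35.1–35.2 Mb held 4 each, of 20 and 23 regions. Windows with none included 34.3–34.4 Mb (13 regions), 34.4–34.5 Mb (12), 35.0–35.1 Mb (14), 35.6–35.7 Mb (13) and 35.9–36.0 Mb (10). The median D was positive on both slides in 13 windows and negative on both in 2. Within so few regions a window, these counts are a description of where the calls lay.

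The call size decided many of the calls. The smaller D of the slides lay between 0.53 and 0.59 in 10 of the 22, and between 0.41 and 0.49 in 9 regions just outside. At a call size of 0.75 there were 6 higher regions (2.22%, against 1.05% of all regions), and at 0.4 there were 31 (11.5% against 7.63%). In the other direction, the most negative region on both slides was chr17:35783602-35784659, with M of 1.58 and 1.35 in the control pool and 1.1 and 0.95 in the food restricted pool (D -0.48 and -0.40). It was followed by chr17:36034506-36035669 (D -0.45 and -0.33) and chr17:34043807-34044300 (D -0.48 and -0.33). In these 3 the values of the pools did not overlap, which within a slide follows from how they were picked. The size of D stayed under 0.5 on both slides.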

How the data were processed

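Per the submitters' processing notes, Agilent Feature Extraction (version 10.5.1.1) read the 4 arrays, which carry 2 colours each. Per the file headers, processed intensity is background-subtracted and dye-normalized within the array, probe positions are on mm9, and the deposited files also hold flags and the scanner's log10 ratio, not used for results. The deposited value table holds log2 ratios of red over green intensity, not turned for the dyes. Antibody and fragmentation: not given in the sources used here.

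Of 420288 spots, 4474 controls and 65 probes with outlier flags were left out. M was computed from processed intensity with its sign set by each title's dyes and the median of the array subtracted, with no loess or quantile step. Joined runs longer than 2000 bp were cut into the fewest equal pieces, so a piece can pass that length by part of a probe. Channel differences are medians over probes of log2 signal, less the median of that channel on that array, and need not add up to D. A region was dim in a pool where under 50% of its probes were well above background on both arrays. Pools were compared within a slide. The number of arrays limits the precision.

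Regions named are those called (the 15 of the 22 with the largest smaller D in full, the other 7 for completeness), the 5 highest and lowest by mean M, the longest runs and the 5 largest steps; the 3 most negative were named after their values were seen. The segment, gene lists and rules were chosen with earlier results of these data known. Calls were checked on simulated data. Alternatives were computed in Python 3.11.15 (pandas 2.3.3, numpy 2.4.6) and, for normexp (offset 50) and loess (span 0.3), limma 3.58.1. RefSeq tables gave gene order and promoters, matched by symbol.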

Additional observations from a re-analysis of the deposited data

How the results depend on the processing

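Depth could not be gauged beyond signal over background: D of dim regions is limited by the control signal, and 1 pool a group leaves variation between animals unmeasured. The 22 higher regions became 29 without centring, 8 with centring on the densest value, 2 with quantile normalization, 49 with loess within arrays (12 of the 22 among them), 24 with normexp (13 of the 22 among them), 3 with the immunoprecipitated channel alone, 2 with the running median of D along M taken off, 0 with the value table read by its headers, 6 at a call size of 0.75 and 37 to 43 with 1 slide left out (without replicate 1 or 2). The share called higher, 8.15% against 4.55% of all regions, fell below that of all regions under some settings. It was 0.741% against 1.18% with quantile normalization and 1.11% against 3.33% with the immunoprecipitated channel alone. With the running median it was 0.741% against 1.09%, and by the headers 0% against 2.53%. Under the other settings it stayed above, as with loess (18.2% against 8.53%) and without replicate 1 (15.9% against 13.8%). The lower count of 0 became 4 with the immunoprecipitated channel alone, 3 by the value table's headers and 4 with either slide left out, and stayed 0 under the rest. Over all 56653 regions the lower counts were 977 with the immunoprecipitated channel alone and 584 by the headers. They were 2124 without replicate 1 and 2542 without replicate 2. Without dim immunoprecipitated probes, 17 of the 19 called regions still measured were called. D across the slides in place of within them (no replicate block) gave 19 higher and 0 lower regions, 16 of them among the 22. Cutting long runs from their low end, an alternative chosen after seeing the data, gave 16 of 245 regions. The causes of these changes were not tested.

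The median D of 0.06 became 0.15 without centring, -0.077 with centring on the densest value, 0.12 with loess, 0.14 with normexp, 0.13 with means over probes, -0.19 with the immunoprecipitated channel alone, 0.014 with the running median taken off, -0.074 by the value table's headers, and 0.053 to 0.11 with a slide left out. The share of regions with M above 1 in the control pool, 44.1%, became 40.4% without centring, 67.4% with centring on the densest value, 8.52% with loess, 22.96% with normexp, 43.1% without dim reference probes, 50.2% without dim immunoprecipitated probes, 42.6% with neighbours at most 250 bp apart, and 44.4% to 45.6% with a slide left out. That of the food restricted pool, 42.6%, became 39.3%, 64.8%, 25.6% with loess, 25.6% with normexp, 41.6% and 48.6% under the same settings in that order, 44.1% with quantile normalization, 44.1% with means over probes, 41.9% by the value table's headers, and 42.2% to 43.0% with a slide left out. Under loess the segment's control share fell below that of all regions (14.5%), and under each other setting it stayed above.

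Among the regions named for their call or their M, mean D of those called higher changed sign as follows. Values by the value table's headers compare slides and dyes along with pools, as stated above. With the immunoprecipitated channel alone it was -0.21 at 34053477, -0.34 at 34054950, -0.33 at 34074213, -0.45 at 34080085, -0.010 at 34137192, -0.31 at 34746847, -0.27 at 35113835, -0.10 at 35272979, -0.40 at 35299005, -0.34 at 36396980 and -0.36 at 34731456. By the value table's headers it was -0.11 at 34053477, -0.044 at 34054950, -0.0495 at 34080085, -0.35 at 34254052, -0.0025 at 34746847, -0.0835 at 35113835, -0.12 at 35187400, -0.065 at 35301946 and -0.15 at 36396980. Quantile normalization gave -0.12 at 34080085 and -0.065 at 34731456, the running median gave -0.037 at 34080085, normexp gave -0.11 at 35272979, and leaving out dim immunoprecipitated probes gave -0.078 there. Among the uncalled regions of low M, 35998035 (mean D 0.56) had -0.39 by the value table's headers and -0.0037 with normexp, and 35974250 (0.015) had -0.26 with quantile normalization, -0.24 with loess, -0.30 with the running median, -0.13 with normexp, -0.13 with centring on the densest value and -0.14 without replicate 1.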

Other observations

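The 102 probes of the segment outside regions had a median M of 0.05, with a range from -2.82 to 4.50, and 28 of them were above 1. They stand in short groups or alone, and so they were not compared between the pools.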
